A study of Homo sapiens with 36 samples.

Results

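The 3 clusters of replication-dependent histone genes and the tandem array of 5S ribosomal RNA genes were examined as 4 intervals of the hg19 assembly. The first cluster 1 interval was chr6:26000001-26300000 and the second was chr6:27700001-27900000. The cluster 2 interval was chr1:149750001-149900000, and the interval of cluster 3 and the 5S array was chr1:228550001-228800000. Cut into 2-kb windows from their starts, the intervals held 150, 100, 75 and 125 windows, 450 in all out of 1517727 windows of chromosomes 1 to 22 and X. The first 3 intervals are the histone clusters 1 and 2 (325 windows). The cluster 3 and 5S interval was chosen by its γH2AX values, which were higher under aphidicolin, so that difference is given as a description, without a test.

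Replication-dependent histone genes encode the core and linker histones that package newly made DNA, and they are transcribed mainly in S phase. The 5S genes are short genes transcribed by RNA polymerase III, and they lie in a tandem array of near-identical copies. MacroH2A1 is an H2A variant that carries a large macro domain; alternative splicing of its transcript yields macroH2A1.2. γH2AX, which is H2AX phosphorylated near its tail end, marks chromatin around DNA breaks and stalled forks. Aphidicolin blocks replicative DNA polymerases and so slows replication forks.

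Chromatin of K562, a human chronic myeloid leukaemia cell line, was digested with micrococcal nuclease and immunoprecipitated with antibodies to macroH2A1, macroH2A1.2 or γH2AX, and the authors deposited 1 list of enriched islands per library. γH2AX was mapped in 5 untreated and 5 aphidicolin-treated K562 libraries in 3 series of sample titles (2, 2 and 1 per treatment), called sets 1, 2 and 3 here; in set 1 the treated libraries have 0.5 in their titles, with no unit. MacroH2A1 was mapped in 2 untreated and 2 treated libraries of set 1, and macroH2A1.2 in 2 untreated and 2 treated libraries of set 2 (replicates 1 and 3). Line 2A3, which the labels do not describe further, had 1 untreated and 1 treated γH2AX library in set 3. Untreated K562 carrying the hairpin sh-RFP or the hairpin sh-mH1.2 had 1 macroH2A1.2 library each, under titles that also name F10 and C11. The 14 input libraries were not analysed here. Whether libraries of a group came from separate cultures is not stated, so each p-value reflects the spread of these libraries alone, which may be technical. In a cell population, a mark on fewer cells and a weaker mark on all cells cannot be told apart.

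The depth of the reads is unknown beyond the island reads, which ranged from 2022630 to 75168077 per list. Islands covered 1.27 to 7.75% of the mapped span in the K562 γH2AX lists, 10.9 to 14.4% in macroH2A1 and 7.96 to 10.5% in macroH2A1.2. The aphidicolin γH2AX library of set 2 replicate 3 stood apart from the other set 1 and set 2 aphidicolin libraries, with 2.4% of the span covered against 5.92 to 7.75%, and that of set 3 covered 2.13%. The sh-mH1.2 list covered 0.781%. The library label was checked on chromosome 22, where K562 carries extra copies of the BCR-ABL1 region: the densest 1-Mb bin held 1.3 to 5.67 times the mean island reads per kb in the 19 K562 lists other than sh-mH1.2. It was the bin starting at 23 Mb in 14 of them, at 2.32 to 5.67 times. The other 5 were exactly the untreated γH2AX lists, whose densest bin started at 16, 17 or 22 Mb and held 1.3 to 1.66 times the mean. The check therefore did not show the K562 label in that whole arm of the γH2AX comparison, and its part in the γH2AX differences was not tested.

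The annotation used here was RefSeq on GRCh38.p14, another build than the islands, so it gave gene names and their order only, and no island was placed on a gene. It lists 55 protein-coding histone genes of cluster 1 (6 H1, 12 H2A, 15 H2B, 10 H3 and 12 H4), 12 of cluster 2 and 3 of cluster 3. Along chromosome 1 the cluster 3 genes H3-4, H2AC25 and H2BC26 are followed by RNF187 and then by the 5S genes from RNA5S1 on, 17 in all, with RHOU before the last, RNA5S17. Their promoters are shown because this cluster shares its interval with the γH2AX difference that chose it. Each is the 250 bases before the RefSeq start, 5′ to 3′ on the gene's strand, with capitals where either strand reads CCAAT or holds a TATA box, searched as TATAAA.

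H3-4 (GRCh38.p14 chr1:228425361-228425610, minus strand): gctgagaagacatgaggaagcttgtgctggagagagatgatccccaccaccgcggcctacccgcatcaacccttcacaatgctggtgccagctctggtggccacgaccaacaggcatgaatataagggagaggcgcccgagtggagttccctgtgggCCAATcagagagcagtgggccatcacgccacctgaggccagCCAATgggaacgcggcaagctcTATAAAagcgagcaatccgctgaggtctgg
H2AC25 (GRCh38.p14 chr1:228457874-228458123, minus strand): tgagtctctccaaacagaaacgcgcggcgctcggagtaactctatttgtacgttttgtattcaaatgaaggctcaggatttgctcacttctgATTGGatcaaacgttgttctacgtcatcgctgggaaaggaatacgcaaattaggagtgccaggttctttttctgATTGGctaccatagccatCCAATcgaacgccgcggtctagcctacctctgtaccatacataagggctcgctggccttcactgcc
H2BC26 (GRCh38.p14 chr1:228457853-228458102, plus strand): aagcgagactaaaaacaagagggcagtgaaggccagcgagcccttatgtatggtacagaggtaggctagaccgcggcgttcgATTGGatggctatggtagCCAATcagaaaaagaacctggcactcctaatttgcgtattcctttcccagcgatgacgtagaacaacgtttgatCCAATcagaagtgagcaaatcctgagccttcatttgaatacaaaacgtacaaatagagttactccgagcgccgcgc

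H2AC25 and H2BC26 are divergent, and their promoter windows overlap, so they share their 3 CCAAT matches. The H3-4 promoter held 2 such matches. It also held 1 match to the TATA box, and neither of the other promoters held one. A CCAAT match stood in 56 of the 65 histone promoters in the RefSeq table (86.2%) and in 33% of all 27305 promoters. The TATA box match stood in 43 of 65 (66.2%) against 11.1% of all promoters. The octamer ATTTGCAT, on either strand, stood in 14 of 18 H2B promoters and 11 of 16 H2A promoters, against 1.66% of all promoters, and in none of the 3 shown.

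**Figure D1:**
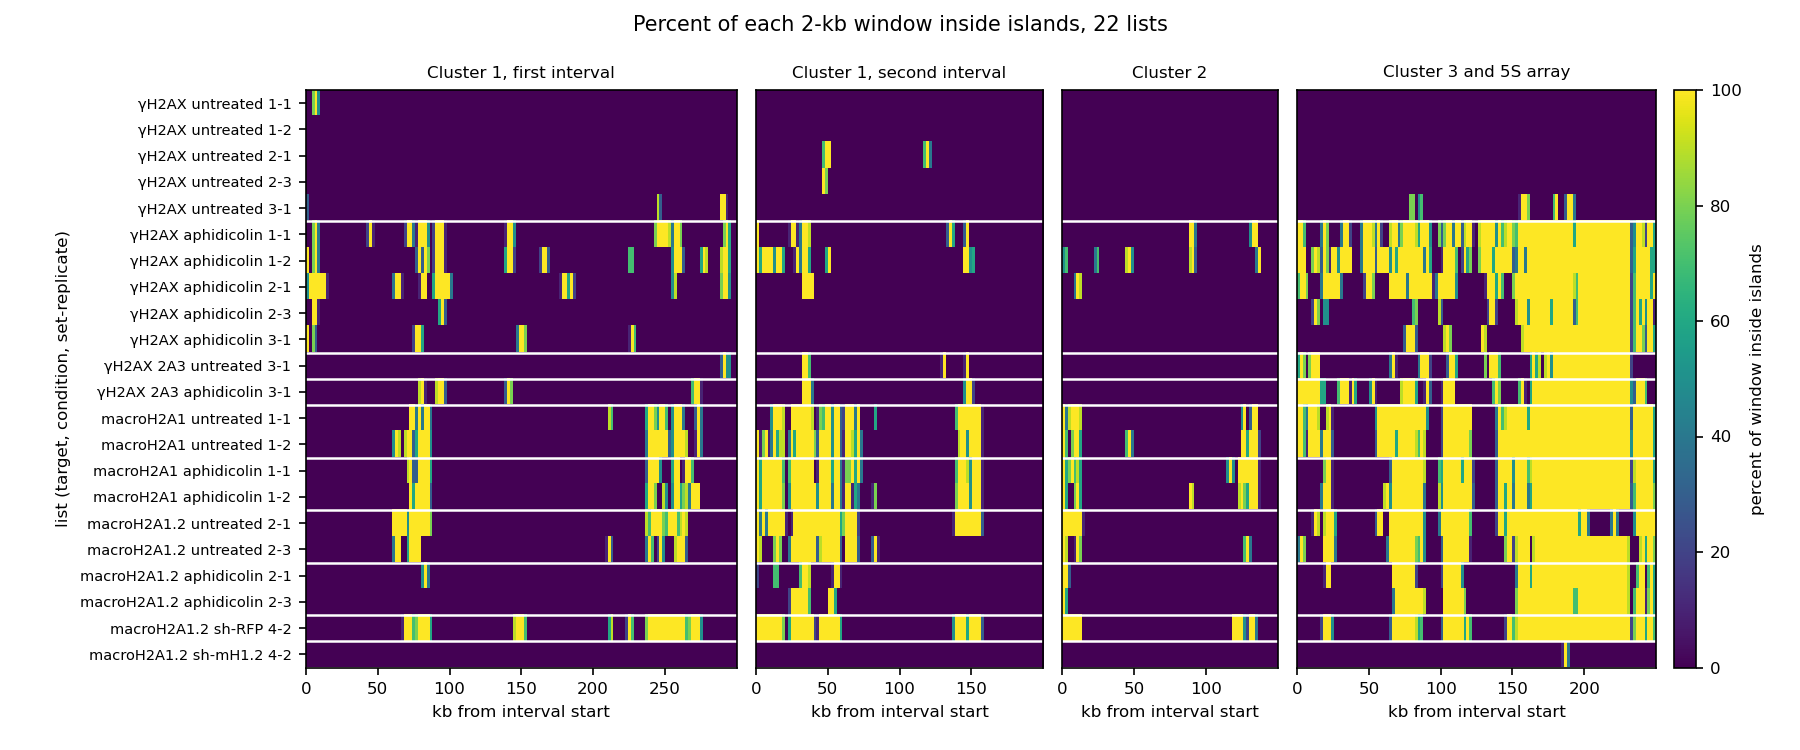
Percent of each 2-kb window inside islands (colour, 0 to 100) for the 22 lists (rows, labelled target, condition, set and replicate; 2A3 and hairpin lists are named) along the 4 intervals (x axis, kb from the interval start). Macro-histone islands form blocks in clusters 1 and 2 that thin out in the macroH2A1.2 aphidicolin lists, and most lists share a block of the cluster 3 and 5S interval that ends at the same place.

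The question of the macroH2A1.2 comparison was where this isoform lies in untreated cells and under replication stress. In untreated cells macroH2A1.2 islands covered part of all 4 intervals, and under aphidicolin little of clusters 1 and 2 was left inside islands. In the first cluster 1 interval the untreated libraries covered 17.9 and 10.9%, and the aphidicolin libraries 1.27 and 0%. In the second cluster 1 interval they covered 40 and 27.1% untreated, and 7.4 and 9.5% under aphidicolin. In the cluster 2 interval the values were 9.47 and 7.87% untreated, and 3.07 and 2.13% under aphidicolin.

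Both aphidicolin values lay below both untreated values in each of these 3 intervals. The differences were -13.8 points (14.4 ± 4.95 to 0.633 ± 0.896%, mean ± SD, n = 2 and 2), -25.1 points (33.5 ± 9.12 to 8.45 ± 1.48%) and -6.07 points (8.67 ± 1.13 to 2.6 ± 0.66%). Each gave p = 0.333 in a two-sided exact permutation test, the smallest p that 2 libraries against 2 allow. The genome-wide cover moved the other way: the lists covered 9.42 and 7.96% of the span untreated and 10.5 and 10.1% under aphidicolin.

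Set against each list's own span, the first cluster 1 interval held 1.9 and 1.37 times its share of macroH2A1.2 islands in untreated cells. Under aphidicolin it held 0.121 times its share in replicate 1 and had no island in replicate 3. The second cluster 1 interval went from 4.25 and 3.4 times its share to 0.707 and 0.94 times. Relative to the span, then, both cluster 1 intervals passed from above the list average to below it.

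Tested on 50-kb windows with limma, 3 of the 18 windows of the 4 intervals had lower macroH2A1.2 cover under aphidicolin, and none had higher, with 11 windows covered in enough libraries (at least 2) to be tested. Over all 19158 windows tested, 5.27% were called lower and 11.5% higher at an adjusted p under 0.05 (Benjamini-Hochberg). At an unadjusted p under 0.05, 7 of the 11 were lower and none higher, against 14% and 25.3% of all windows tested. With lists of equal covered length the balance over all windows turned, with 948 called higher and 1300 lower of 16604, and 4 windows of clusters 1 and 2 were called lower. All 3 called windows lay in cluster 1.

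The window chr6:27700001-27750000, at the start of the second interval, was covered to 84 and 68.4% in untreated cells and to 20.8 and 27.6% under aphidicolin. Its groups did not overlap, and the difference was -52 points (SE 6.96, limma adjusted p = 0.0335). The next window, chr6:27750001-27800000, was covered to 38.4 and 40% untreated and to 8.8 and 10.4% under aphidicolin, with replicates close together in both groups. Its difference was -29.6 points (SE 2.58, limma adjusted p = 0.0245). In chr6:26200001-26250000 of the first interval, 25.6 and 20.8% were covered untreated and no base under aphidicolin. The difference was -23.2 points (SE 3.05, limma adjusted p = 0.0326). This window passed the filter of at least 2 covered libraries only through the untreated group, so it could only be called lower. Its treated values lie at the floor with an SD of 0, which adds no spread to the SE.

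The other tested windows of clusters 1 and 2 did not pass. The largest of these differences was in chr6:26050001-26100000, with 53.2 and 28% untreated against 7.6 and 0% (difference -36.8 points, SE 10.4, limma adjusted p = 0.0977). In chr6:26250001-26300000 the values were 28.8 and 16.8% against 0 and 0% (limma adjusted p = 0.0704), so this window too was tested only through its untreated values. In the first cluster 2 window, chr1:149750001-149800000, they were 28.4 and 15.2% against 9.2 and 6.4% (limma adjusted p = 0.172).

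The 3 calls rest on all 4 libraries. Without any 1 of them no window passed in limma, within the intervals or elsewhere, and the adjusted p of these windows then lay between 0.105 and 0.163, with a lone library taken to vary like the other group. The window chr6:26200001-26250000 could be tested only without an aphidicolin library, since without an untreated one it was covered in too few. With the replicate number as a block the count over all windows was also 0. On island reads shared out to the windows, edgeR's quasi-likelihood test called 5 windows of the intervals lower and none higher, against 12.1% and 15% of all windows. DESeq2 called 7 lower and none higher, against 22% and 25.8% of all windows. With the denser 50% of islands limma did not call chr6:26200001-26250000 (difference -4.6 points, adjusted p = 0.222) or chr6:27700001-27750000 (difference -48.6 points, adjusted p = 0.0673).

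**Figure D2:**
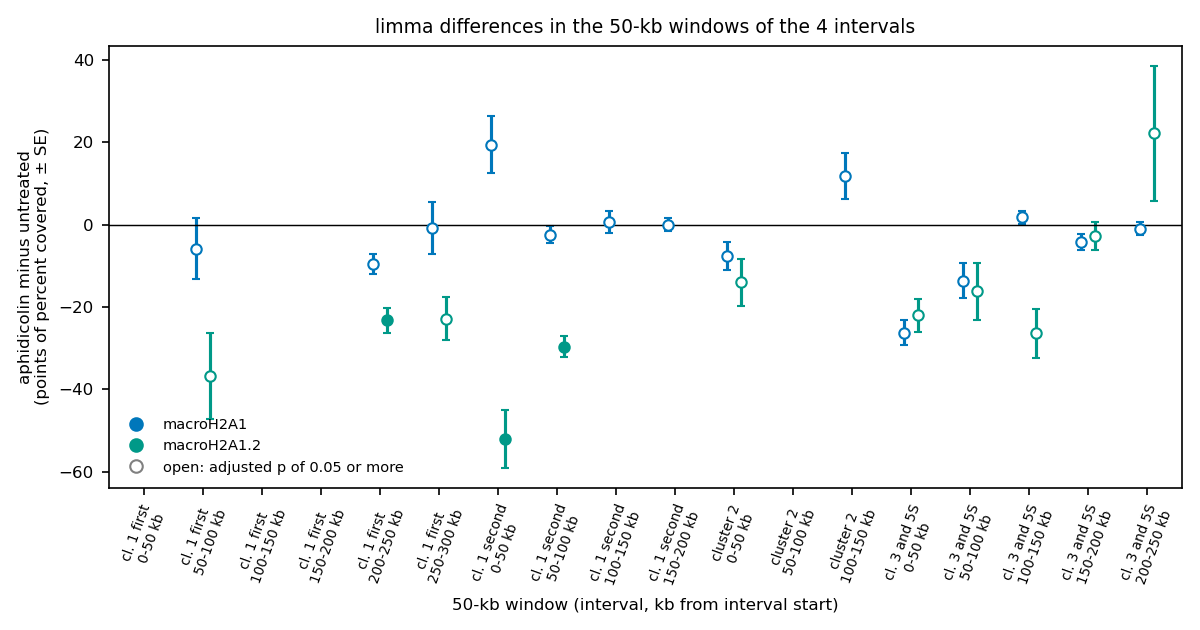
Difference in the percent of each 50-kb window covered, aphidicolin minus untreated K562 (y axis, points, limma estimate ± SE), for macroH2A1 and macroH2A1.2 in the windows of the 4 intervals (x axis, kb from the interval start); filled points have an adjusted p under 0.05, and windows without a point were not tested. The 3 filled points, at -23.2, -52 and -29.6 points, are macroH2A1.2 windows of cluster 1.

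At the 2-kb scale, 37 of the 325 windows of clusters 1 and 2 separated the treatments downward for macroH2A1.2, with every aphidicolin library below every untreated one by a mean of at least 50 points. None separated upward. Of the 325, 57 were covered in at least 2 libraries; over all windows so covered, 11.9% separated downward and 19.8% upward. With lists of equal covered length 36 separated downward and none upward, against 16.1% and 14.5% of all windows so covered. Of the 37, 19 lay in the first cluster 1 interval, 15 in the second and 3 in cluster 2.

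Windows with at least 50% of their length inside islands are called occupied. In both untreated libraries macroH2A1.2 occupied 15 windows of the first cluster 1 interval, 23 of the second and 4 of cluster 2. None of the 15, 5 of the 23 and 2 of the 4 were also occupied in both aphidicolin libraries. Over the 3 intervals 28 of 42 windows (66.7%) were occupied in neither aphidicolin library, against 15.9% of all windows occupied in both untreated libraries. The longest stretch in the first interval occupied in both untreated libraries was chr6:26070001-26080000, 10 kb, and no window of that interval was occupied in both aphidicolin libraries.

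One longer stretch of cluster 1 was occupied throughout. In the second interval chr6:27730001-27738000, 8 kb long, was occupied in all 8 macroH2A lists of untreated and aphidicolin-treated K562. It was also the longest stretch occupied in both macroH2A1.2 aphidicolin libraries there, inside a 16-kb stretch (chr6:27726001-27742000) of the untreated libraries.

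MacroH2A1 cover was measured in the same intervals. The first cluster 1 interval was covered to 13.3 and 16.9% in untreated cells and to 11.5 and 13.3% under aphidicolin, and the second to 32.7 and 35.2% and then 38 and 38.7%. Cluster 2 was covered to 13.3 and 17.3% untreated and to 19.6 and 16.4% under aphidicolin. The differences were -2.7, 4.4 and 2.67 points, with exact permutation p = 0.333, 0.333 and 0.667, where 0.333 is the smallest possible.

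The macroH2A1 lists were longer under aphidicolin, with 14.4 and 14.4% of the span against 10.9 and 11.3%, and the signs of these differences depended on how many islands were kept. With every list trimmed to the same covered length by island density, the differences were -11, -4.8 and -0.2 points in the first and second cluster 1 intervals and cluster 2. The first of these lies in the same direction as that of macroH2A1.2, which was -13.5 points there with trimmed lists. With the denser 50% of each list's islands they were 2.93, -3.3 and -6 points, each of the opposite sign to the full lists.

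No 50-kb window of the 4 intervals was called for macroH2A1 by limma, of 14 tested; over all 20337 windows tested 0.059% were called higher and 0% lower. At an unadjusted p under 0.05, 3 of these windows were lower and none higher, against 1.62% and 27% of all windows tested. On island reads edgeR called none lower and DESeq2 called 6, against 0.00492% and 14.6% of all windows. At the 2-kb scale 7 windows of clusters 1 and 2 separated upward and 5 downward, with 90 of the 325 covered; over all windows so covered, 14.8% separated upward and 1.4% downward. With lists of equal covered length 2 separated upward and 16 downward, 11 of these in the first cluster 1 interval, against 5.8% and 5.17% of all windows so covered. Of the 56 windows of clusters 1 and 2 occupied in both untreated macroH2A1 libraries, 46 (82.1%) were occupied in both treated ones and none was unoccupied in both. Over all windows these shares were 92.6% and 1.61%.

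The difference between the antibodies was tested in 1 limma fit of the 8 libraries, as the interaction of treatment and target, chosen after the values had been seen. The antibody and the set of libraries cannot be told apart in this fit, because macroH2A1 comes only from set 1 and macroH2A1.2 only from set 2. Of the 18 windows, 2 had a lower macroH2A1.2 response than macroH2A1 response, and over all 23015 windows tested 5.23% did and 2.71% had a higher one. At an unadjusted p under 0.05, 5 were lower and none higher, against 18.5% and 8.05% of all windows tested. In chr6:27700001-27750000 macroH2A1 went from 59.6 and 75.6% to 84.4 and 89.6% while macroH2A1.2 went down, an interaction of -71.4 points (SE 10.5, limma adjusted p = 0.0226). In chr6:27750001-27800000 macroH2A1 covered 36 and 35.2% untreated and 34.8 and 31.6% treated (difference -2.4 points, limma adjusted p = 0.505), and the interaction was -27.2 points (SE 3.07, limma adjusted p = 0.014). Leaving out 1 library at a time moved the adjusted p between 0.0227 and 0.0715 for the first window and between 0.0232 and 0.06 for the second, and with the replicate block neither passed. With lists of equal covered length the interactions were -43.2 points (limma adjusted p = 0.038) and -27 points (limma adjusted p = 0.0666). With the denser 50% of islands they were -42.4 points (limma adjusted p = 0.0718) and -29.4 points (limma adjusted p = 0.0302), so each setting kept only 1 of the calls.

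The windows occupied with both antibodies were counted in each condition, as a description. In the first cluster 1 interval 9 windows were occupied in all 4 untreated macroH2A lists, of 16 occupied in both macroH2A1 lists and 15 in both macroH2A1.2 lists. In the second interval 20 windows were shared, of 31 and 23. Under aphidicolin the shared windows came to 0 and 5, while macroH2A1 occupied 13 and 37 windows in both of its lists, the shared ones included. MacroH2A1.2 occupied only 0 and 5 windows in both of its aphidicolin lists, so the shared counts could not be higher. Shared windows went from 3 to 2 in cluster 2 and from 58 to 58 in the cluster 3 and 5S interval. The matching share of all windows was not computed.

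**Figure D3:**
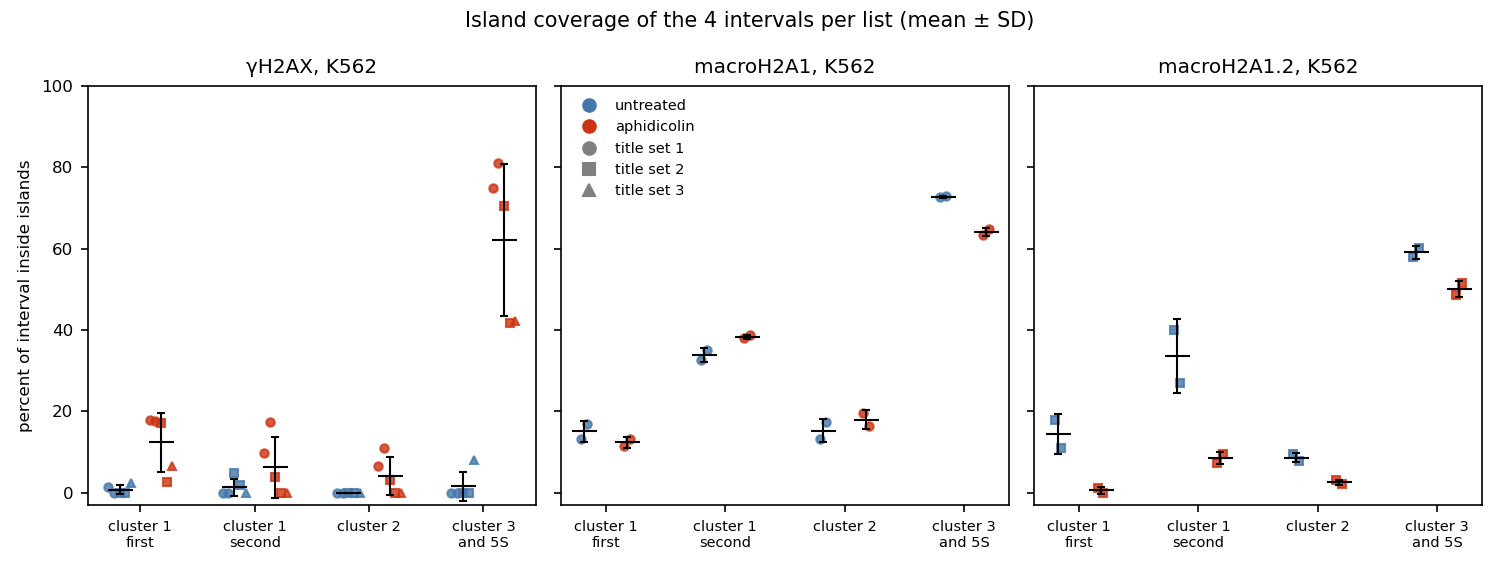
Percent of each interval inside islands (y axis) per K562 library (points; shape gives the title set) in untreated and aphidicolin-treated cells, with the mean and SD (bars), for γH2AX, macroH2A1 and macroH2A1.2. The macroH2A1.2 aphidicolin points lie below the untreated points in every interval, and the γH2AX points separate in the cluster 3 and 5S interval, which was picked for that.

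The macroH2A1.2 antibody was also used on cells with a hairpin. With sh-RFP, islands covered 24% of the first cluster 1 interval, 35.7% of the second, 18.8% of cluster 2 and 59.1% of the cluster 3 and 5S interval. With sh-mH1.2 they covered 0, 0, 0 and 1.2%. There is 1 library per hairpin, so these values have no replicate check, and the sh-mH1.2 list is short throughout, with 3212 islands against 39096.

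The question of the γH2AX comparison was where damage signalling appears under replication stress. In clusters 1 and 2 γH2AX islands were few in untreated cells, and under aphidicolin their places were only partly shared between libraries. The first cluster 1 interval was covered to 1.53, 0, 0, 0 and 2.4% in the untreated libraries (set 1 replicates 1 and 2, set 2 replicates 1 and 3, set 3) and to 17.9, 17.6, 17.2, 2.67 and 6.6% in the aphidicolin libraries in the same order. Every aphidicolin library lay above every untreated one. The difference was 11.6 points (0.787 ± 1.12 to 12.4 ± 7.23%, SD, n = 5 and 5), with a two-sided exact permutation p = 0.0278 within sets, the smallest of 72 assignments.

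The aphidicolin lists with the higher values, those of set 1 and of set 2 replicate 1, were also the longest. The difference was 17, 9.93 and 4.2 points in sets 1, 2 and 3, and 14 points without set 2 replicate 3 of the aphidicolin group (exact permutation p = 0.0278) and 13.1 points without that of set 3 (exact permutation p = 0.0278). Without either untreated library of set 2 the exact permutation p was 0.0833, and without that of set 3 it was 0.0556. With all lists trimmed to the same covered length the difference was -0.107 points and the exact permutation p was 1.

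The second cluster 1 interval was covered to 0, 0, 4.8, 1.8 and 0% in untreated cells and to 9.7, 17.5, 4, 0 and 0% under aphidicolin. The groups overlapped, and the difference of 4.92 points gave an exact permutation p = 0.278. Within sets it was 13.6, -1.3 and 0 points. Cluster 2 had no γH2AX island in any untreated library and 6.5, 11.1, 3.1, 0 and 0% under aphidicolin, a difference of 4.13 points (exact permutation p = 0.167).

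None of the 13 γH2AX windows of 50 kb in clusters 1 and 2 was called by limma, with 12 tested; over all 21136 windows tested 6.3% were called higher and 2.13% lower. At an unadjusted p under 0.05 limma had 2 of them higher and none lower, against 28% and 10.2% of all windows tested; edgeR's adjusted test called 1 higher and DESeq2 called 5, against 21.8% and 45.4% of all windows. The median difference was 5.68 points over the 12 windows and 6.96 points over all windows tested. With lists of equal covered length the median over all windows was -0.96 points, and 74 windows were called higher and 6 lower. The one edgeR called was chr6:26050001-26100000, with 0% in all 5 untreated libraries and 38, 26.8, 40.8, 7.6 and 11.2% under aphidicolin (limma adjusted p = 0.0556, edgeR adjusted p = 0.00622). It passed the filter of at least 2 covered libraries only through the aphidicolin lists, so it could only be called higher. The untreated lists were also shorter, with 1.27 to 2.81% of the span against 2.13 to 7.75%. Without 1 library (untreated set 3, aphidicolin set 2 replicate 3 or aphidicolin set 3) limma called 1 window of these intervals.

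No 2-kb window of clusters 1 and 2 separated the treatments for γH2AX, with 47 of the 325 covered, where 2.43% of all windows so covered separated upward and 0.0501% downward. Some windows were occupied in more than 1 aphidicolin library. Of the 325 windows 1 was occupied in all 5, beside 4700 of all 1517727 windows, so a low count is not particular to these intervals. In the first cluster 1 interval 56 windows were occupied in at least 1 of the 5 and 1 window in all 5, chr6:26004001-26006000. The lists of set 2 replicate 3 (2.4% of the span) and set 3 (2.13%) are short, which limits the count in all 5. The share of all windows occupied in at least 1 of the 5 was not computed. In the second interval 25 were occupied in at least 1 library and in cluster 2 14, and none in all 5.

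The γH2AX islands of cluster 1 were set against the macroH2A islands of the same title. In the second interval 79.4 and 99.4% of γH2AX island length under aphidicolin lay inside macroH2A1 islands (set 1 replicates 1 and 2), which covered 38 and 38.7% of that interval. In the first interval the shares were 39 and 25%, where macroH2A1 covered 11.5 and 13.3%. With macroH2A1.2 of set 2 replicate 1 they were 72.5% in the second interval and 5.81% in the first, where macroH2A1.2 covered 7.4 and 1.27%. Set 2 replicate 3 had 8 kb of γH2AX islands in the first interval, where macroH2A1.2 covered 0%, and none in the second. These are lengths of 8 to 53.8 kb per list and are given without a test.

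Some windows of the cluster 1 and cluster 2 intervals held no island of any of the 3 targets. Of their windows 67 of 150, 42 of 100 and 47 of 75 held no island base in any of the 22 lists. In the cluster 3 and 5S interval this was so for 2 of 125. The longest such stretches were chr6:26102001-26138000, chr6:27858001-27900000 and chr1:149800001-149838000, of 36, 42 and 38 kb. The share of all windows without an island in any list was not computed, so these counts are a description only.

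The interval of cluster 3 and the 5S array was the most covered of the 4 in every macroH2A list. γH2AX covered 0, 0, 0, 0 and 8.08% of it in the untreated libraries and 75, 81, 70.4, 41.8 and 42.2% under aphidicolin, in the same order of sets. The means were 1.62 ± 3.61 and 62 ± 18.7% (SD, n = 5 and 5), a difference of 60.4 points that is not tested because it chose the interval. It was 65.5 points without the aphidicolin library of set 2 replicate 3, and 38.6 points with lists of equal covered length.

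In line 2A3 the untreated library covered 41.1% of the cluster 3 and 5S interval, against 8.08% in the K562 library of the same set, and the treated one covered 56.5% against 42.2%. In the first cluster 1 interval 2A3 had 1.53% untreated and 6.73% treated, in the second 4.9 and 6.1%, and in cluster 2 none in either. There is 1 library per line and treatment, and the difference between the lines was not tested. The 2A3 lists were also longer than the K562 lists, with 3 against 1.27% of the span untreated and 4.45 against 2.13% treated. Set against each list's own span, the cluster 3 and 5S interval held 13.7 times its share in 2A3 and 6.36 times in K562 untreated. Treated, the order was the other way, with 12.7 times in 2A3 and 19.8 times in K562.

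Within the cluster 3 and 5S interval γH2AX was densest at its far end. All 5 aphidicolin lists were occupied throughout chr1:228744001-228782000, 38 kb, and 43 of the 125 windows separated the treatments upward, a count that follows from how the interval was picked. By 50-kb window the aphidicolin means went from 33 ± 27% in the first to 92.4 ± 4.62% and 91 ± 2.18% in the last 2. In the first 3 windows the libraries spread widely, with set 1 at 39.6 to 79.2% and set 2 replicate 3 and set 3 at 0 to 18.4%. In the last 2 all 5 lay between 87.6 and 97.6%.

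MacroH2A1 covered 72.6 and 73% of the interval in untreated cells and 63.4 and 64.9% under aphidicolin (difference -8.64 points, exact permutation p = 0.333, the smallest possible). MacroH2A1.2 covered 58 and 60.3% and then 48.7 and 51.5% (difference -9.04 points, exact permutation p = 0.333). For each antibody both treated libraries lay below both untreated ones. The lowest macroH2A1 difference lay in the first window: in chr1:228550001-228600000 macroH2A1 went from 36 and 42% to 11.6 and 14% (difference -26.2 points, limma adjusted p = 0.0722) and macroH2A1.2 from 26 and 26.4% to 8.4 and 0% (difference -22 points, limma adjusted p = 0.0511). Neither passed the threshold, and the interaction between the antibodies there was 4.2 points (limma adjusted p = 0.671). The lowest macroH2A1.2 difference lay in chr1:228650001-228700000, with 62 and 48.8% untreated and 26.8 and 31.2% treated (difference -26.4 points, limma adjusted p = 0.0673, edgeR adjusted p = 0.0406). MacroH2A1 covered that window to 60.8 and 61.2% and then 62.8 and 62.8%, and the interaction was -28.2 points (limma adjusted p = 0.0601).

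In the last 100 kb macroH2A1 stayed near full cover, with 93.6 to 100% in all 4 libraries and both windows. MacroH2A1.2 covered chr1:228700001-228750000 to 98.4 and 92% untreated and 92 and 92.8% treated. In chr1:228750001-228800000 its untreated libraries lay far apart, with 42.8% in replicate 1 and 84.8% in replicate 3, against 83.6 and 88.4% treated (difference 22.2 points, limma adjusted p = 0.382). At the 2-kb scale 12 windows of the interval separated downward and 1 upward for macroH2A1, with 100 of the 125 covered, so that its downward share of those was 12%, against 1.4% of all windows so covered. For macroH2A1.2 12 separated downward and none upward, with 81 covered, a share of 14.8% against 11.9% of all.

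The 3 targets shared one block. The stretch chr1:228714001-228752000, 38 kb, was occupied in all 8 macroH2A lists of untreated and treated K562. Its part chr1:228714001-228742000, 28 kb, was also occupied in all 5 γH2AX aphidicolin lists. Since the interval was picked for γH2AX under aphidicolin, the γH2AX part is a description. The share of all windows occupied in all these lists was not computed. Of γH2AX island length in the interval under aphidicolin, 77.5 and 72.1% lay inside macroH2A1 islands of the same title and 65.3 and 85.4% inside macroH2A1.2 islands. MacroH2A covered 48.7 to 64.9% of the interval in those lists. Of the 60 windows that macroH2A1.2 occupied in both untreated libraries here, 43 (71.7%) were occupied in all 4 of its lists and 8 (13.3%) in neither treated one. Both shares were near those of all windows, 69.8% and 15.9%.

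Beyond the end of this block, a right edge near chr1:228782000 was common to most lists. An island ended within 1 kb of chr1:228782000 in 15 of the 22 lists, with edges from 228781800 to 228783000, including all 5 γH2AX aphidicolin lists, both 2A3 lists and all 4 macroH2A1 lists. The lists without it were the 5 untreated γH2AX lists of K562, 1 untreated macroH2A1.2 list and the sh-mH1.2 list. How this edge relates to the end of the 5S array was not tested, since the array was not placed on hg19.

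**Figure D4:**
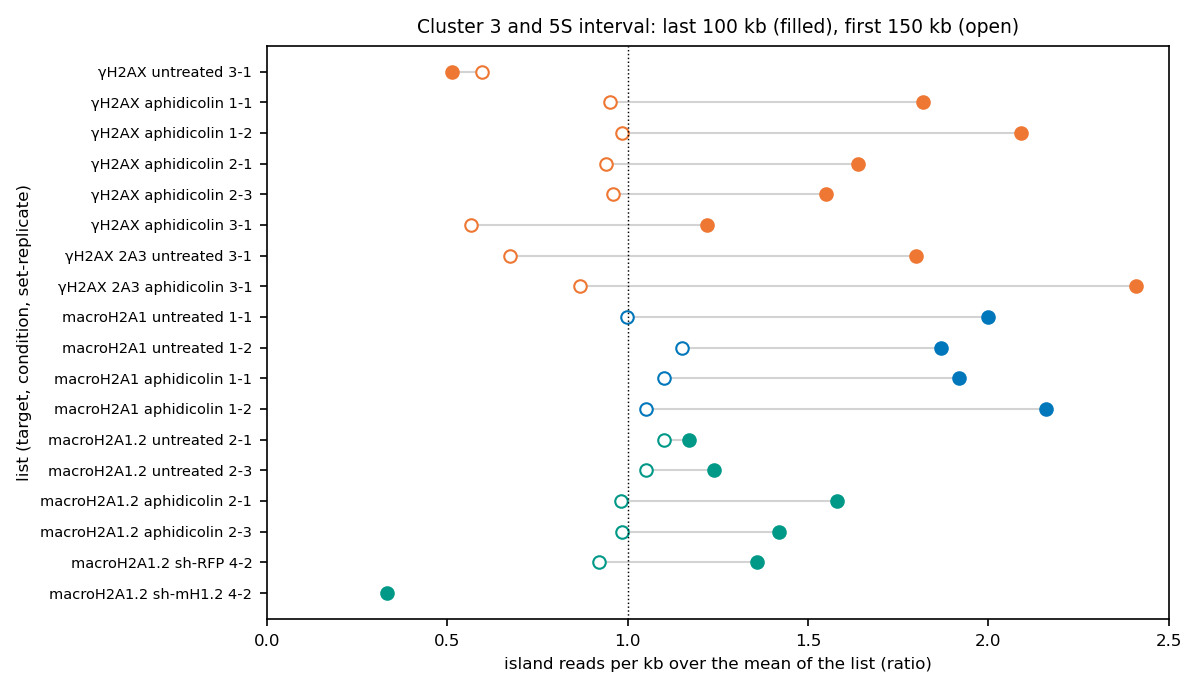
Island reads per kb relative to the mean of the same list (x axis, ratio; the dotted line is 1) in the last 100 kb (filled) and the first 150 kb (open) of the cluster 3 and 5S interval, for the 18 lists with an island in the last 100 kb (rows, labelled target, condition, set and replicate). In each list that has both points, except the untreated γH2AX list of set 3, the filled point lies to the right of the open one.

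Island reads were also denser there. In the last 100 kb, chr1:228700001-228800000, the γH2AX aphidicolin lists held 1.82, 2.09, 1.64, 1.55 and 1.22 times their list's mean reads per kb, and 0.951, 0.985, 0.939, 0.959 and 0.566 times in the first 150 kb. MacroH2A1 held 2 and 1.87 times untreated and 1.92 and 2.16 times treated, and macroH2A1.2 held 1.17 and 1.24 times and then 1.58 and 1.42 times. The 2A3 lists held 1.8 times untreated and 2.41 times treated. Reads from repeated copies can be placed on any copy, and the sources used here do not say how such reads were handled; the part of copy number and read placement in these densities was not tested. In 4 of the 5 untreated γH2AX lists of K562 the same 100 kb held no island.

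The edges of the intervals were not edges of the signal. Just outside the cluster 3 and 5S interval, chr1:228500001-228550000 had 0 ± 0% γH2AX untreated and 81.4 ± 14.9% under aphidicolin, next to 0 ± 0 and 33 ± 27% just inside. On its other side chr1:228800001-228850000 had 5.84 ± 7.35 and 46.9 ± 19.2%, next to 0 ± 0 and 91 ± 2.18% inside. Just before cluster 2, chr1:149700001-149750000 had 88 ± 8.49% macroH2A1.2 cover untreated and 19.6 ± 8.49% under aphidicolin, with macroH2A1 at 89 ± 1.41 and 88.8 ± 0.566%. Just before the second cluster 1 interval macroH2A1.2 had 24.8 ± 9.62 and 3.6 ± 5.09%, and just after it 25.8 ± 0.283 and 13.8 ± 8.77%. Before the first cluster 1 interval its groups overlapped, with 19.4 ± 5.37 and 14.6 ± 9.9%, and after it they had 22.6 ± 13.3 and 2.4 ± 3.39%. Before the cluster 3 and 5S interval it had 15.2 ± 8.49 and 8.6 ± 0.283%. After that interval it was higher under aphidicolin, with 56.2 ± 24 and 83.8 ± 0.283% (SD, n = 5 and 5 for γH2AX, 2 and 2 for the others).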

How the data were processed

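The authors mapped reads to hg19 with Bowtie2 2.1.0 and called islands with SICER 1.1, per the submitters' processing notes. The list names chosen by the authors give a 200-bp window, a 600-bp gap and an FDR of 0.01. Each deposited list, 1 per library, holds island starts, ends and read counts, and the authors' read counts are not scaled for depth. Reads outside islands were not analysed here, so a change in cover can come from a change in how much of the genome was called.

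The windows and gene lists were chosen with earlier results of these data known. Percent of each window inside islands was computed in Python 3.11.15. The 50-kb windows covered in at least 2 libraries were tested with limma 3.58.1 in R 4.3.3 (γH2AX with set as a term), adjusted over all windows tested, and whole intervals with exact permutation tests. Alternatives used edgeR 4.0.16 and DESeq2 1.42.0 on island reads shared out to windows by length and rounded. Scripts were tested on simulated data. The windows named are 50-kb windows of the intervals or beside them and the longest runs of occupied windows; the cluster 3 promoters were chosen after values were seen. Same-numbered libraries did not deviate together: correlations were -0.0393 and 0.0922 for γH2AX sets 1 and 2, 0.0151 for macroH2A1 and -0.0483 for macroH2A1.2. No replicate pair shared over 0.0366% of its islands exactly.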

Additional observations from a re-analysis of the deposited data

Results flagged for a closer look

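The untreated γH2AX library of set 3 covered 8.08% of the cluster 3 and 5S interval, while the other 4 untreated K562 libraries covered 0%. Its gap to the nearest library passed Dixon's 95% limit, as any value above 0 would have with the other 4 at 0. The interval was also chosen by its γH2AX values, so the flag is a description only. Chance alone flags about 1 in 20 groups, and 8 groups were searched. The difference of the aphidicolin response between macroH2A1.2 and macroH2A1, tested as an interaction in limma, was -71.4 points in chr6:27700001-27750000 and -27.2 points in chr6:27750001-27800000. Antibody and library set cannot be told apart there.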

How the results depend on the processing

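Of the 36 interval differences recomputed under other island choices, 29 kept their direction and side of the threshold. For macroH2A1 and macroH2A1.2 the side could not change, since the smallest possible exact permutation p is 0.333. γH2AX in the cluster 3 and 5S interval was not tested and was used to choose it. In all of these only the direction could move. With equal covered length the γH2AX difference in the first cluster 1 interval reversed to -0.107 points, that of the cluster 3 and 5S interval was 38.6, and macroH2A1 was -11 in the first cluster 1 interval and reversed to -4.8 in the second cluster 1 interval and -0.2 in cluster 2. With the denser 50% of islands macroH2A1 gave 2.93, -3.3 and -6 points in the first and second cluster 1 intervals and cluster 2. Both settings leave fewer bases per list, and the cause was not tested otherwise. Leaving out 1 library gave 10.2 to 14, 2.11 to 6.48, 2.4 to 5.17 and 55.7 to 65.5 points for γH2AX in the 4 intervals in order, -4.47 to -0.933, 3.15 to 5.65, 0.667 to 4.67 and -9.36 to -7.92 for macroH2A1, and -17.3 to -10.3, -31.6 to -18.7, -6.87 to -5.27 and -10.4 to -7.64 for macroH2A1.2.

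Counts of 50-kb windows depended on the setting. For γH2AX, 1331 higher and 451 lower became 113 and 2 with the replicate block, 74 and 6 with equal covered length, 251 and 51 with the denser 50%, 5251 and 1831 on the arcsine scale, 448 and 37 with at least 1 covered library, 4605 and 1660 in edgeR, 9588 and 4194 in DESeq2, and 2449 higher with 25-kb windows; leaving out 1 library gave 134 to 3466 higher and 2 to 1390 lower. In clusters 1 and 2 the count of higher windows went from 0 to 2 on the arcsine scale, 1 with 25-kb windows, 1 in edgeR and 5 in DESeq2, and from 0 to 1 without 1 library. For macroH2A1, 12 higher and 0 lower became 0 higher with the block, 1 lower with equal length, 342 and 17 with the denser 50%, 46 and 1 with 25-kb windows, 19 and 1 in edgeR and 3814 and 2961 in DESeq2, with 6 windows of the intervals lower there; leaving out 1 library gave 0 and 0. For macroH2A1.2, 2196 higher and 1010 lower became 0 and 0 with the block, 948 higher and 1300 lower with equal length, 968 and 554 with the denser 50%, 3313 and 1682 on the arcsine scale, 2314 lower in edgeR, and 4935 and 4221 in DESeq2; leaving out 1 library gave 0 and 0. Its 3 lower windows in the intervals became 0 with the block or without 1 library, 1 with 25-kb windows, 5 in edgeR and 7 in DESeq2. The interaction's 624 higher and 1204 lower became 0 and 0 with the block, 1920 and 1856 in edgeR, 3867 and 3716 in DESeq2, and 96 to 632 and 133 to 1666 without 1 library. Its 2 lower windows became 0 with the block, 1 with the denser 50%, 4 on the arcsine scale, 5 in edgeR and 8 lower and 1 higher in DESeq2, and 0 to 4 lower and 0 to 1 higher without 1 library. Same-numbered libraries share only a number, so the replicate block is no pairing of samples, and interval differences were not fitted with it.

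Within the intervals, counts of separating 2-kb windows moved as follows for macroH2A1: 7 higher and 5 lower in clusters 1 and 2 became 2 and 16 with equal length, and 1 higher in the cluster 3 and 5S interval became 3 at 20 points. Occupied windows per list at a limit of 10 and 90% of the window numbered 70 and 49 in 2A3 untreated, 103 and 75 in 2A3 treated, 182 and 142 in macroH2A1 untreated, 173 and 130 treated, 154 in macroH2A1.2 untreated at 10%, 82 and 66.5 treated, 178 and 141 with sh-RFP, and 3 with sh-mH1.2 at 10%. Read depth outside islands is unknown here, and 2 libraries a group cannot pass the exact test.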
